A study of Mus musculus with 8 samples.

Results

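To describe which gene starts carried a compact stretch of the repressive histone mark H3K27-me3 in both groups of mice, 2975 regions were taken from 58951 AAV-Cre peaks on chr1 to chr19. The regions were selected on measured values: each was a peak of the AAV-Cre list narrower than 5000 bp that overlapped an AAV-GFP peak by at least 1 bp and was no more than 1 kb from the start of a protein-coding gene (GENCODE, mm10). They made up 5.05% of the AAV-Cre peaks on these chromosomes, 20.9% of the 14227 that overlapped an AAV-GFP peak and 23.5% of the 12656 that did so and were narrower than 5000 bp. Their genes numbered 2751 of the 20720 protein-coding genes on these chromosomes (13.3%, 95% Wilson interval 12.8 to 13.7%).

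H3K27-me3 was measured by ChIP-seq in the liver of male C57BL/6 mice whose JMJD3 alleles were floxed in both groups. At 8 weeks of age the mice received AAV-TBG-Cre, in which the hepatocyte promoter TBG drives Cre and removes JMJD3, an H3K27 demethylase, or the control virus AAV-GFP, which carries no Cre. Livers were taken 12 weeks later after a 16 h fast, and each group had 2 libraries of H3K27-me3 and 2 of input. Each group's peak list pooled both replicates, so a region had 1 value per list, the groups could not be tested against each other, and the intervals given reflect counting error alone. There were 59267 AAV-Cre peaks (median width 753 bp) and 34586 AAV-GFP peaks (median width 231 bp), and 88.6% and 46.8% of them had a q value of 0.05 or less, so fold enrichments were not compared between the lists. Peak lists hold no RNA levels. The targeted gene Kdm6b, which encodes JMJD3, had no peak of either list within 1 kb of a start site, and the lists could not show its deletion. The 48 hepatocyte genes of a marker list had no peak of either list within 1 kb of a start site, which held for 75.1% of all protein-coding genes.

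H3K27-me3 is written by Polycomb repressive complex 2 and removed by the demethylases UTX and JMJD3. In adult tissues it covers the start sites of genes that are kept silent in that tissue, above all regulators of embryonic development, and it favours start sites rich in CpG dinucleotides. Broad domains over clusters of developmental regulators are the best known form, and compact regions at single start sites are another.

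The regions are shown through their sequence at or near the summit, the base of highest enrichment. For the 4 most enriched regions by p value in the AAV-Cre list, 150 bases of mm10 nearest to the AAV-Cre summit that touch no annotated exon are given on the strand of the gene, with CpG dinucleotides in capitals. They come from chr8:84945806-84945955 at Rtbdn (a riboflavin-binding protein of the retina, plus strand), chr6:52191028-52191177 at Hoxa4 (a homeobox regulator of the body axis, minus strand), chr8:70862798-70862947 at Kcnn1 (a calcium-activated potassium channel, minus strand) and chr17:28364081-28364230 at Tulp1 (a photoreceptor protein, minus strand).
Rtbdn: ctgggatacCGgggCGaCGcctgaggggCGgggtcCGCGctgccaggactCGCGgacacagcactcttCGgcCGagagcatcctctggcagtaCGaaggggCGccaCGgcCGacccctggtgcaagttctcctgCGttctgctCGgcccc
Hoxa4: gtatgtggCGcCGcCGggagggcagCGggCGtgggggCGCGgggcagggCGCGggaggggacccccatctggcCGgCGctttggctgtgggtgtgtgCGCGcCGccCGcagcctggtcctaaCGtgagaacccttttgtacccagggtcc
Kcnn1: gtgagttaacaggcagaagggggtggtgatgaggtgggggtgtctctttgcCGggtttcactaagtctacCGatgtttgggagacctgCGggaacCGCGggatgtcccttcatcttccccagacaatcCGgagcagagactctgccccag
Tulp1: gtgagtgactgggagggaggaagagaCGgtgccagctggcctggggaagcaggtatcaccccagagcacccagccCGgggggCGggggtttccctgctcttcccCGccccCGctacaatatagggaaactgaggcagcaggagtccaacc
The Rtbdn and Hoxa4 stretches held 16 CpGs each, Kcnn1 6 and Tulp1 5. The Rtbdn stretch lay upstream of the start site with its middle at -1110 bp, and the other stretches lay in introns at 650, 385 and 987 bp inside the gene. The Rtbdn stretch was centred on the AAV-Cre summit. The middles of the Hoxa4, Kcnn1 and Tulp1 stretches were 259, 210 and 196 bp from it, so these do not hold the summit base.

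The next sequences come from near both ends of the range of the CpG observed over expected ratio. They show the range under the chosen peaks, among the genes that the naming rule admits. At the high end are chr3:37641002-37641151 at Spry1, an inhibitor of receptor tyrosine kinase signalling, and chr15:78913769-78913918 at Pdxp, pyridoxal phosphatase, both on the plus strand. At the low end are chr5:145470830-145470979 at Cyp3a16, a cytochrome P450 (minus strand), chr9:109815631-109815780 at Spink8, a serine protease inhibitor (plus strand), and chr17:42743233-42743382 at Adgrf2, an adhesion G protein-coupled receptor (minus strand).
Spry1: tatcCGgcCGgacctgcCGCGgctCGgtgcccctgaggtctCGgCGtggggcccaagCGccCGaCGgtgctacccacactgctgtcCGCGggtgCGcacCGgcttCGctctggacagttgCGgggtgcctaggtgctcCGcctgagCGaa
Pdxp: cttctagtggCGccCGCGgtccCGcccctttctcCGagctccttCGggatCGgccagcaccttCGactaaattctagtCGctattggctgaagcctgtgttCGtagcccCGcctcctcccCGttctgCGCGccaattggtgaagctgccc
Cyp3a16: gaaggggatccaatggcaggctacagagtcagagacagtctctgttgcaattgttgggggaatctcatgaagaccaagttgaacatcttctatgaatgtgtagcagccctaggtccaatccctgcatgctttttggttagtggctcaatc
Spink8: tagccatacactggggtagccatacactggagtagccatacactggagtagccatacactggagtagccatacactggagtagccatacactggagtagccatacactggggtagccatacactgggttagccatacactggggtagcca
Adgrf2: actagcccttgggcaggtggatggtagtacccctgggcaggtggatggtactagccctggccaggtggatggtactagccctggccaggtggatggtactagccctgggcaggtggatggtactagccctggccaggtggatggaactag
The Spry1 stretch held 18 CpGs and the Pdxp stretch 14, and none of the 150 bases at Cyp3a16, Spink8 or Adgrf2 was part of a CpG. The middle of the Pdxp stretch was 517 bp from the AAV-Cre summit, and the other stretches were centred on it. The Spink8 stretch was 97% identical to itself shifted by 16 bases and the Adgrf2 stretch 90.5% identical to itself shifted by 24 bases, so both were tandem repeats. Whether reads map there to more copies than the genome assembly holds was not tested.

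Single regions were present at a gene of the autophagy, endothelial and Kupffer cell lists, and are shown since each was its list's single narrow region. They were at Calcoco2, an autophagy receptor (chr11:96111781-96111930, minus strand), Erg, an ETS factor of endothelial cells (chr16:95585469-95585618, minus strand), and C1qa, a complement subunit made by macrophages (chr4:136898596-136898745, minus strand).
Calcoco2: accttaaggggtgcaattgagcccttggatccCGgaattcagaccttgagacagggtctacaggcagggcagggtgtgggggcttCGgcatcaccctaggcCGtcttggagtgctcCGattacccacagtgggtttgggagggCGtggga
Erg: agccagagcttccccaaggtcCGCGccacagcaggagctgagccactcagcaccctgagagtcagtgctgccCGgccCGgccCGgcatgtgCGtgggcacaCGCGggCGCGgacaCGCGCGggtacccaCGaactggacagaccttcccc
C1qa: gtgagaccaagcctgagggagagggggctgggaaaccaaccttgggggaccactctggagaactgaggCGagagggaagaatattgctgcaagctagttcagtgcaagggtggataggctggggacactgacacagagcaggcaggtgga
Erg held 14 CpGs in this stretch, Calcoco2 5 and C1qa 1.

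The 2975 regions were among the most enriched AAV-Cre peaks. Of them, 68.0% (95% interval 66.3 to 69.7%) ranked in the strongest 10% of AAV-Cre peaks by p value and 3.33% in the weaker 50%. Their median fold enrichment over input was 5.82 (range 1.57 to 21.8) and their median -log10 p was 20.6 (2.08 to 135), and 98.4% had a q value of 0.01 or less. Median width was 2591 bp, with an interquartile range of 1674.5 to 3585 bp. Narrow AAV-Cre peaks at start sites that overlapped no AAV-GFP peak numbered 2389 and were weaker and shorter, with a median fold of 2.95, a median -log10 p of 5.05 and a median width of 796 bp. The 940 shared peaks of 5 kb or more at start sites were stronger, with a median fold of 8.78 and a median -log10 p of 45.0. The 9681 narrow shared peaks away from start sites had medians of 3.78, 8.11 and 1416 bp. Of the narrow AAV-Cre peaks at start sites 55.5% overlapped an AAV-GFP peak, against 18.6% of those elsewhere. Overlap chose the regions, and a wider peak has more room for it. These shares, the ranks and the contrasts in strength and width are therefore a description of the choice.

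Each threshold of the rule split similar regions. The widest regions were at Tspear (4998 bp), Pparg (4997 bp) and Lypd3 (4997 bp), while Kcnk1 (5005 bp), Adcy8 (5009 bp) and Sfrp5 (5013 bp) fell just outside. By distance, Abcd2 (999 bp from the start site), Tmem178 (994 bp) and C1ql2 (993 bp) were the last inside, and Slc22a27 (1002 bp), Kcnh8 (1003 bp) and Gng2 (1006 bp) the first outside. By overlap, Hap1 shared 1 bp with an AAV-GFP peak, Ptpn5 2 bp and Pxdn 3 bp, and the peaks at Lgi1 and Tnfrsf9 missed one by 1 bp and that at Ajap1 by 7 bp. The narrowest regions were at the histone gene Hist1h4n (315 bp), Cdh13 (316 bp) and Tmem181a (329 bp).

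The 10 strongest regions included genes of the retina, of nerve cells and of epithelia. Rtbdn led both by p and by fold: the AAV-Cre peak of 4390 bp had a fold of 21.8 and a q of 5.31e-126, and its AAV-GFP peak had a fold of 6.33 and a q of 3.04e-34. Hoxa4 followed with a fold of 16.0 (q = 1.02e-104) and an AAV-GFP fold of 9.76 (q = 1.95e-45). The Kcnn1 region had a fold of 18.2 (q = 6.28e-99) and an AAV-GFP fold of 7.19, and the Tulp1 region 14.4 (q = 3.09e-89) and 7.23. At these 4 genes AAV-GFP peaks covered 83.4, 88.1, 82.2 and 79.1% of the region. The regions were picked by AAV-Cre p value, and the folds and q values of both lists are given without comparing them.

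The next were Dner, a Notch ligand of neurons, with an AAV-Cre fold of 16.1, Ovol2, a zinc-finger regulator of epithelial identity, with 16.5, and Pappa, a protease that cleaves an IGF-binding protein, with 16.8. Ttc9b (16.8), Cpne7 (16.7) and Elavl3, a neuronal RNA-binding protein (12.7), closed the group. Pappa had the least secure AAV-GFP peak of the 10, with a fold of 2.64 and a q of 5.96e-08. All 10 regions contained a start site, and in 8 of them the AAV-Cre summit lay inside the gene.

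**Figure D1:**
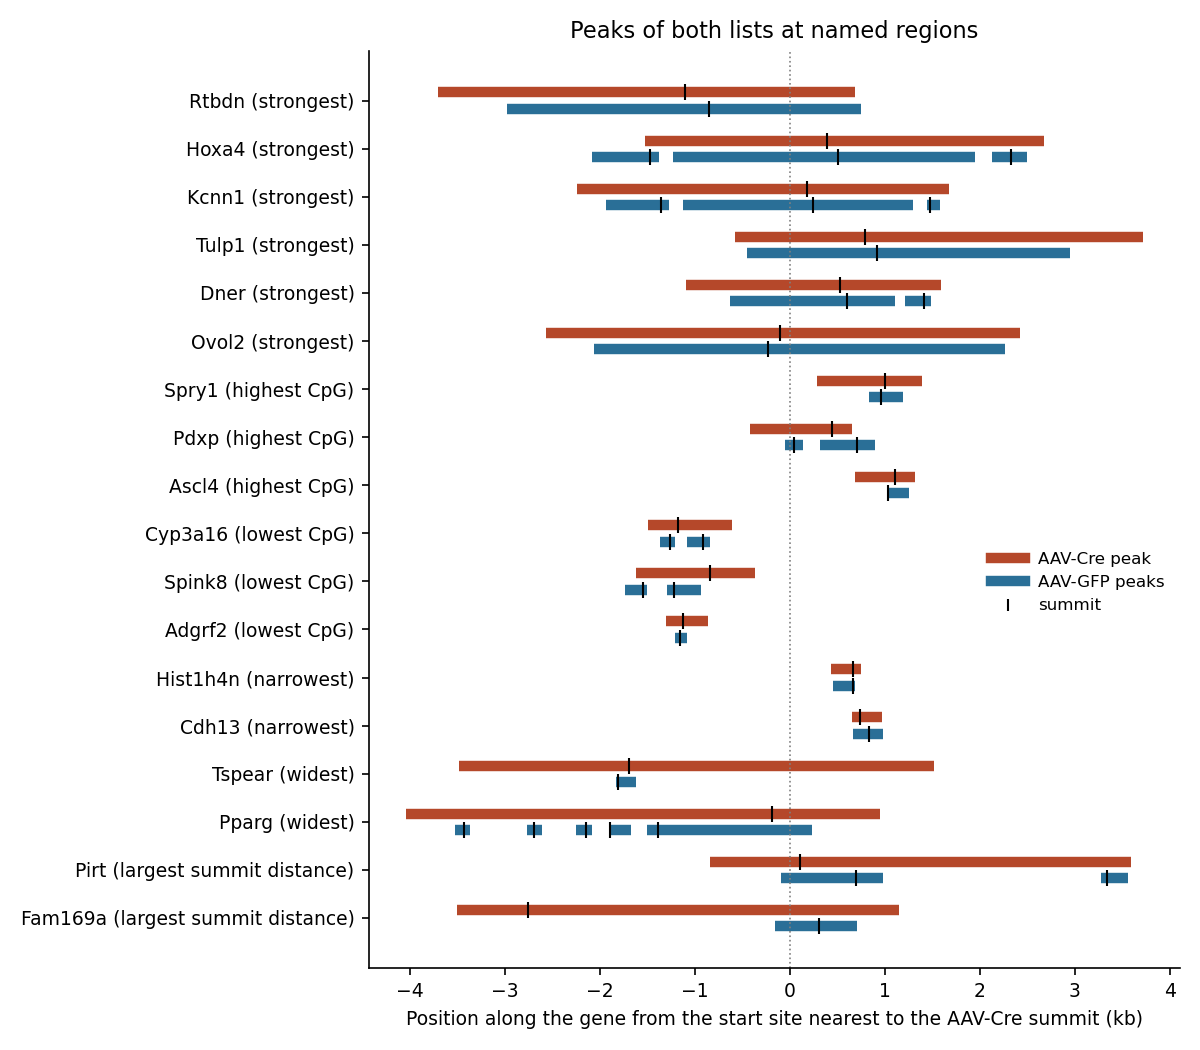
Peaks of the AAV-Cre list (red) and the AAV-GFP list (blue) at 18 named regions, placed along the gene by distance in kb from the start site nearest to the AAV-Cre summit (dotted line), with summits as black ticks. Among the strongest regions, Tulp1 and Ovol2 each held 1 AAV-GFP peak and Hoxa4 and Kcnn1 3 each, and at Tspear a peak of 4998 bp held an AAV-GFP peak of 202 bp.

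AAV-GFP peaks were mostly shorter than the AAV-Cre region and lay inside it. They were shorter over the whole lists too, with a median width of 231 bp against 753 bp. The regions were anchored on AAV-Cre peaks, so this is a description of the peak calls. AAV-GFP peaks covered a median of 37.6% of a region's bases (95% interval 36.7 to 38.3%), with an interquartile range of 21.9 to 53.0%, and in 868 regions (29.2%) more bases were covered than not. A region held 1 AAV-GFP peak in 1280 cases, 2 in 879, 3 in 458 and 4 or more in 358, for 6008 AAV-GFP peaks in all. The strongest AAV-GFP peak lay wholly inside the region in 93.2% and was 524 bp wide in the median. It reached a q value of 0.05 in 2316 regions (77.8%) and missed it in the rest. Only 1 region was wholly covered. In regions of 5 kb or more at start sites, of which there were 940, the median covered was 55.0%.

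The summits of both lists fell close together. The median distance between them was 140 bp, 67.3% were within 250 bp, and the AAV-Cre summit was inside an AAV-GFP peak in 75.8%. The largest distances were at Pirt, a regulator of TRP channels (3234 bp), Fam169a (3061 bp) and Mab21l1 (2988 bp). Their strongest AAV-GFP peaks had q values of 0.0671, 0.166 and 4.35e-05 in that order. Regions with a stronger AAV-Cre peak had a stronger AAV-GFP peak, with a Spearman rank correlation of 0.717 between both -log10 p values over 2975 regions. The lists share the genome's base composition and repeats, the regions were chosen for overlap, and a -log10 p rises with the depth of the library, so this is a description.

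Position along the gene leaned to the transcribed side in both lists. Of the regions, 2371 (79.7%, 78.2 to 81.1%) contained a start site, which the rule favoured. The AAV-Cre summit lay downstream of the nearest start site in 69.95% (68.3 to 71.6%). The AAV-GFP summit lay downstream of that same start site in 68.1% (66.4 to 69.8%). Its peak had to overlap the same region, so these shares are not separate observations. Both summits were downstream in 60.2% and on opposite sides in 17.6%. The median position was 144 bp inside the gene for the AAV-Cre summit and 192 bp for the AAV-GFP summit. The 2363 regions that contained the start site nearest to their summit reached a median of 1013 bp upstream and 1578 bp downstream, and 68.4% reached farther downstream. AAV-GFP peaks covered that start site in 63.4% of these regions.

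**Figure D2:**
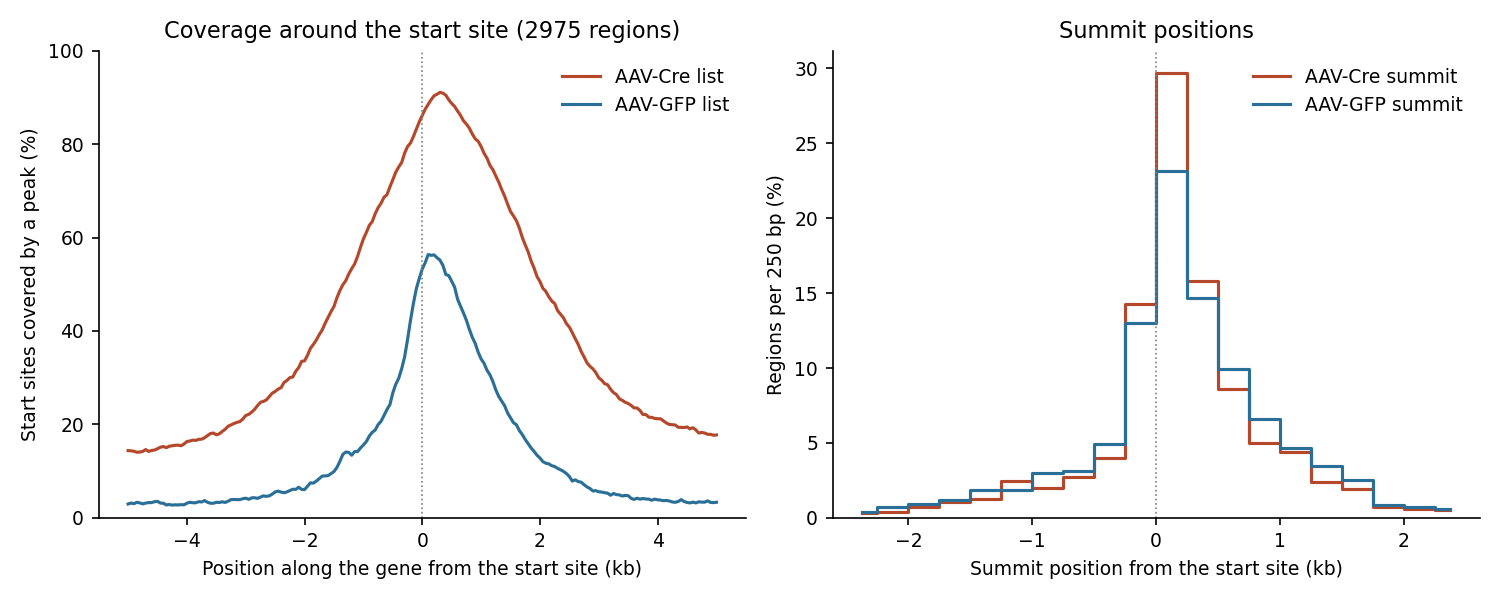
Left, the share of the 2975 start sites (percent) whose surroundings were covered by any peak of the AAV-Cre list (red) or the AAV-GFP list (blue), by position in kb along the gene. Right, the share of regions with the AAV-Cre or AAV-GFP summit in each 250-bp bin. Coverage was highest at 91.1% for AAV-Cre 300 bp inside the gene and at 56.4% for AAV-GFP 100 bp inside, and the bin from 0 to 250 bp held 884 AAV-Cre and 689 AAV-GFP summits.

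Stronger regions were wider, more often on the start site and more fully shared. When the regions were split into 5 groups of 595 by AAV-Cre -log10 p, median width went from 1331 bp in the weakest to 3558 bp in the strongest. The share containing a start site went from 54.5 to 92.3%, and the share with the AAV-Cre summit downstream from 60.3 to 79.0%. AAV-GFP peaks covered a median of 21.4% in the weakest group and 54.2% in the strongest, and reached a q of 0.05 in 43.5 and 99.0%. The median CpG ratio went from 0.374 to 0.496. A wider region has more room for a start site and for AAV-GFP peaks, and the parts of width and strength cannot be told apart here.

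**Figure D3:**
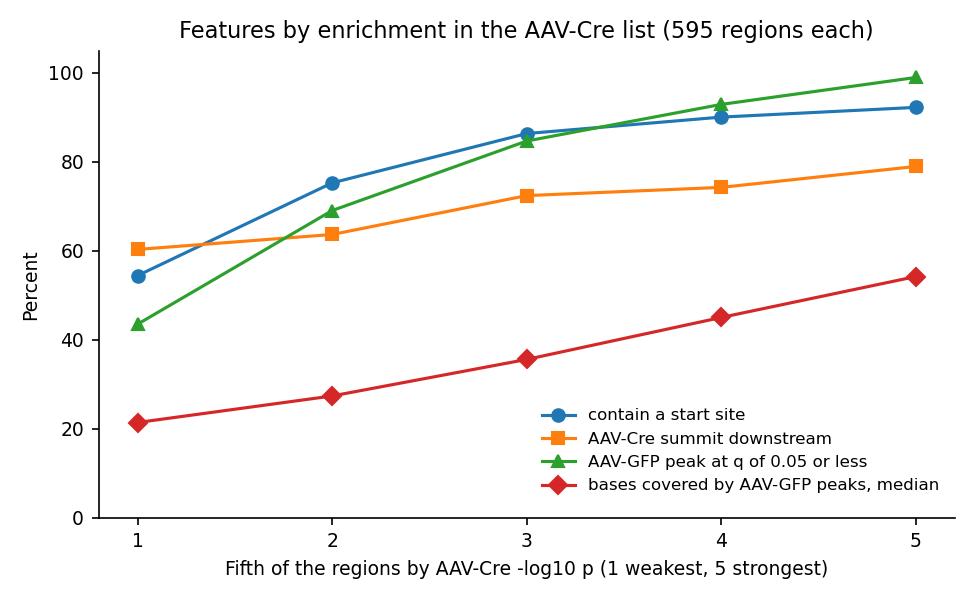
Percent of regions with each feature, and the median percent of bases covered by AAV-GFP peaks, in 5 groups of 595 regions ordered by AAV-Cre -log10 p. All 4 lines rise from the weakest to the strongest group, from 54.5 to 92.3% for regions that contain a start site and from 43.5 to 99.0% for regions with an AAV-GFP peak at a q of 0.05 or less.

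The regions were richer in CpG than the other narrow peaks. The rule asked for a nearby start site, and start sites are rich in CpG at genes with no peak too. Their pooled ratio was 0.712 in the 250 bases after the start site and 0.199 from -2500 to -2250 bp. The contrast with peaks away from start sites is therefore a description of the choice. AAV-Cre-only peaks at start sites were weaker, and among the regions the median ratio rose with strength, from 0.374 to 0.496. In the contrast with these peaks, overlap and strength cannot be told apart. The CpG ratio, the count of CpGs over that predicted by the C and G content, had a median of 0.451 (0.443 to 0.459) in the 2975 regions, 0.231 in narrow shared peaks away from start sites and 0.285 in AAV-Cre-only peaks at start sites. Regions of 5 kb or more at start sites had 0.425. CpGs per 100 bases numbered 3.14, 1.30, 1.87 and 2.97 in the same order, and GC content was 54.0, 47.7, 53.1 and 53.2%. Of the regions 550 (18.5%) were CpG-rich as a whole, that is with a GC content of at least 50% and a ratio of at least 0.6, against 1.47, 10.5 and 6.81%.

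Within a region the CpGs were concentrated at the summit. The 500 bases around the AAV-Cre summit had a median ratio of 0.620 and a GC content of 63.4%, and 52.0% of them were CpG-rich. Around the AAV-GFP summit the ratio was 0.573, the GC content 61% and the CpG-rich share 46.0%. The outermost 250 bases on each side had a median ratio of 0.267. Repeats soft-masked in the reference took up a median of 10.8% of a region, and 14 regions were more repeat than not.

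Over whole regions the ratio was highest at Spry1 (1.06), Pdxp (1.03) and Ascl4, a bHLH factor (1.01), which were all at most 1107 bp wide. The strongest AAV-GFP peak had a q of 0.376 at Spry1, 7.5e-07 at Pdxp and 0.0547 at Ascl4. The lowest ratio of any region was 0.0181, and among the genes that the naming rule admits the lowest were at Cyp3a16 (0.0227), Spink8 (0.0253) and Adgrf2 (0.0294). The region lay upstream of the start site at all 3 without containing it.

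At the start site itself, genes with a region and genes with no peak had similar shares of CpG-rich promoters, but few of the former had a CpG-poor one. In 1000 bases around the start site lying farthest upstream, 50.9% (49 to 52.8%) of the 2751 genes were CpG-rich, 48.1% (47.3 to 48.9%) of the 15552 genes with no peak in either list and 23.8% (21.7 to 26.1%) of the 1445 genes with an AAV-Cre-only peak. A ratio under 0.2 was found in 5.60% (4.80 to 6.52%), 26.0% (25.3 to 26.7%) and 21.9% (19.8 to 24.1%) of the same groups, and the median GC content was 58.6% (58.4 to 59.1%), 54.6% (54.4 to 54.8%) and 54% (53.6 to 54.4%). Of CpG-rich promoters 14.3% had a region and of other promoters 12.4%. In the 250 bases after the start site the pooled ratio was 0.726 for genes with a region, 0.712 for genes with none and 0.539 for AAV-Cre-only genes. From 1000 to 1250 bp inside the gene it was 0.389, 0.300 and 0.277.

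**Figure D4:**
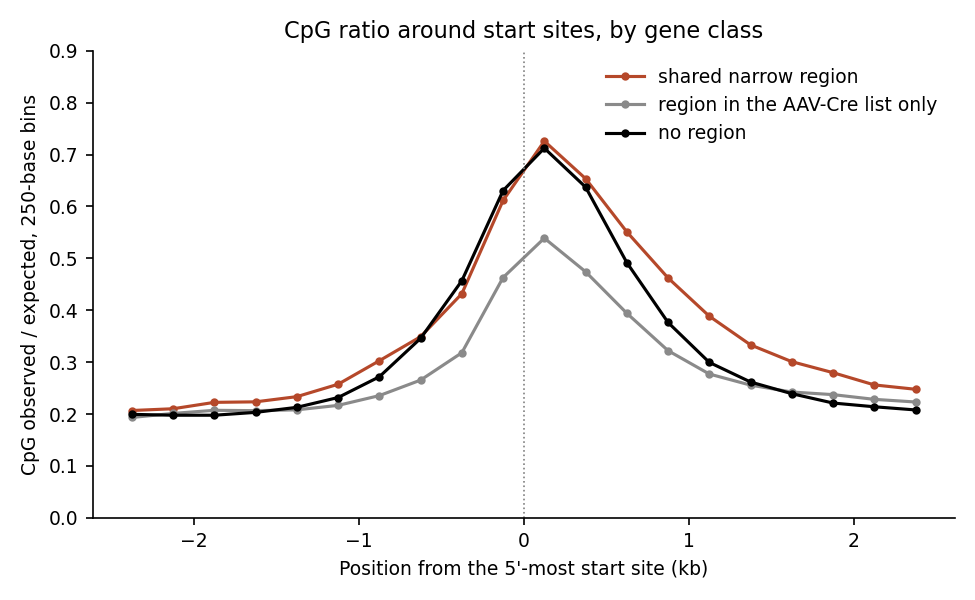
CpG observed over expected ratio in 250-base bins, pooled over genes, by distance in kb from the start site farthest upstream, for genes with a shared narrow region (2751, red), with an AAV-Cre-only peak (1445, grey) and with no peak (15552, black). The red and black lines are close at the start site, at 0.726 and 0.712, and part inside the gene, at 0.389 and 0.300 between 1000 and 1250 bp.

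The regions at CpG-rich promoters were somewhat wider and stronger than the others and contained a start site less often. The 1540 regions whose nearest gene had a CpG-rich promoter had a median width of 2722.5 bp, a median -log10 p of 23.3 and a median of 42.5% covered by AAV-GFP peaks. The 1435 others had 2407 bp, 18 and 32.2%. Of the former 76.3% (74.1 to 78.4%) contained a start site and of the latter 83.3% (81.3 to 85.2%), while the AAV-Cre summit was downstream of the start site in 70.3% (68.0 to 72.6%) and 69.5% (67.1 to 71.9%).

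Short sequence motifs were searched as exact matches on both strands in 300 bases (250 before and 50 after the start site farthest upstream). The ETS motif CCGGAAGT, common at promoters of housekeeping genes, was in 1.05% (0.735 to 1.51%) of the 2751 promoters and in 5.05% of all 20720. Among CpG-rich promoters the shares were 1.14 and 8.66%, and among others 0.962 and 1.81%. The NRF1 motif GCATGCGC was in 2.07 and 3.54%, or 2.57 and 6.13% among CpG-rich and 1.55 and 1.21% among other promoters. The GC box GGGCGG was in 57.1 and 45.6%, in 73.7 and 72.8% among CpG-rich promoters and in 39.8 and 21.1% among others.

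The TATA motif TATAAA was in 9.05% of promoters with a region and in 12.6% of all, but in 6.43 and 5.81% among CpG-rich promoters and in 11.8 and 18.7% among others. The CCAAT box CCAAT was in 33.5 and 38.4%. The homeobox core TAATTA was in 2.54 and 5.04%, or in 1.64 and 1.70% among CpG-rich and 3.48 and 8.04% among other promoters. The repeat GAGAGAGA was in 5.27 and 3.99% and the nuclear receptor element AGGTCA in 12.5 and 14.4%. The E-box CACGTG was in 7.34 and 7.83%, or in 8.57 and 11.1% among CpG-rich and 6.07 and 4.91% among other promoters. The HNF1 motif GTTAATNAT was in 7 promoters with a region (0.254%, against 0.719% of all), the partial REST motif TTCAGCACC in 16 (0.582 and 0.357%), the HNF4 motif CAAAGTCCA in 11 (0.400 and 0.430%) and the C/EBP motif TTGCGCAA in 3 (0.109 and 0.212%). TAATTA can lie within GTTAATNAT and no other motif contains another. A match is a description of these letters and not of binding.

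Most regions were close to further peaks. The gap to the next AAV-Cre peak had a median of 530 bp, 62.8% of the regions had one within 1000 bp and 77.5% within 5000 bp, and 189 regions (6.35%) had a peak of 5 kb or more within 10 kb. The 299 regions (10.1%) with no other AAV-Cre peak within 50 kb had a median width of 2056 bp, a median -log10 p of 16.9 and a median CpG ratio of 0.515, and 90.3% (86.4 to 93.2%) contained a start site. The 1869 regions with a neighbour within 1000 bp had 2634 bp, 20.9 and 0.442, and 75.9% (73.9 to 77.8%) contained one. Tmem181a (166745 bp), Col14a1, a fibril-associated collagen (475026 bp), and Erbb4, a receptor tyrosine kinase (133060 bp), were far from their next peak. Where a gap was short, whether one domain had been cut into several peaks was not tested.

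Of the 2751 genes, 2477 had 1 region, 249 had 2 and 25 had 3 or more. Dst, a cytoskeletal linker, had 4 regions at its alternative start sites, and Ank2, an ankyrin of excitable membranes, and Arhgef15, a guanine nucleotide exchange factor, had 3 each. At Ank2 the regions were 3674, 1798 and 2720 bp wide with AAV-Cre folds of 7.15, 2.75 and 4.74. A region lay near a single gene in 97.5%, 62 regions had start sites on both strands, and 396 (13.3%) had a start site of a long noncoding RNA within 1 kb.

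Transcription factors of development had regions in both width classes, more of them wide. Of 410 such genes 100 (24.4%, 20.5 to 28.8%) had a narrow shared region, against 13.3% of all genes, and a further 211 (51.5%) had only a shared region of 5 kb or more, against 4.4%. Among 39 Hox genes 7 had a narrow region and the other 32 a wide one. The intervals of the Hox (8.98 to 32.7%), forkhead (12 to 36.7%) and zinc-finger lists (12.7 to 29.4%) included the 13.3% of all genes. The narrow ones included Hoxa4, Hoxa2 (AAV-Cre fold 8.31), Hoxc8 (7.30) and Hoxb2 (8.61). Of 147 other homeobox genes 30 had a narrow region, led by Gsc2 (12.5), the chromatin organiser Satb1 (11.8) and Lbx2 (10.1), and 95 had only a wide one.

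Lineage bHLH genes, which direct the fate of neurons and other cells, more often had a narrow region than only a wide one. Of 63 genes 28 had a narrow region (44.4%, 32.9 to 56.7%) and 15 only a wide one. A gene with both was counted as narrow here and in the other lists. Tcf24 led with an AAV-Cre fold of 13.7 and 59.3% of its region covered, followed by Ascl5 (12.0), Bhlhe22 (7.64, 86.6% covered) and Nhlh2 (9.92). Of 41 forkhead genes 9 (22.0%) had a narrow region and 13 only a wide one. Those with a narrow region included Foxd2 (12.3), Foxc2 (14.5), the cilia regulator Foxj1 (13.2) and Foxp2 (9.0). Of 34 Sox and T-box genes 9 (26.5%) had a narrow region and 16 only a wide one. The narrow ones included Tbx18 (9.12), whose region was 97.1% covered, Sox6 (8.87), Sox30 (4.47) and Sox11 (4.05). Zinc-finger developmental genes had a narrow region at 17 of 86 (19.8%) and only a wide one at 40. The narrow ones were led by Ovol2 (16.5), Insm2 (12.3), the Hedgehog effector Gli1 (15.2) and Egr2 (12.8). Among all genes 13.3% had a narrow region and 4.4% only a wide one.

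Signalling genes had narrow regions at 25 to 41.4% of the genes in each list, against 13.3% of all genes, and the interval of the Hedgehog and Notch list (12 to 44.9%) included that share. FGF ligands and receptors had 12 of 29 (41.4%), including Fgf18, Fgf20, Fgf11 and Fgf2 at folds of 8.35, 10.4, 7.34 and 9.35, and all 12 regions contained a start site. BMP and TGF-beta genes had 20 of 64 (31.2%), including the ligands Bmp8b (8.92), Tgfb1 (6.33) and Bmp3 (7.37) and the secreted antagonist Fstl1 (10.4). The Fstl1 region was covered over 45.8%, but its strongest AAV-GFP peak had a fold of 1.60 and a q of 1. Wnt pathway genes had 18 of 63, including the receptors Lgr6 (12.0) and Fzd3 (8.37), the ligand Wnt16 (11.7) and the antagonist Frzb (12.1).

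Lgr6 had the highest AAV-GFP fold of the named regions, 11.5. Hedgehog and Notch genes had 6 of 24, with the receptor Notch3 (11.5), the ligand Shh (9.27), the glycosyltransferase Lfng (8.39) and the co-receptor Boc (4.43). Receptor tyrosine kinases had 13 of 36 (36.1%, 22.5 to 52.4%), with Erbb4 (9.67), the collagen receptor Ddr1 (9.18), Pdgfra (7.87) and Ltk (6.59). Nuclear receptors had 11 of 43 (25.6%, 14.9 to 40.2%), with Nr2f1 (9.06), the adipogenic receptor Pparg (10.1), the progesterone receptor Pgr (9.48) and the retinoic acid receptor Rara (8.26). The share of all genes was 13.3%, close to the lower limit for nuclear receptors.

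Genes of nerve cells and of the extracellular matrix had the highest shares among the lists of 63 genes or more, beside 13.3% of all genes. Of the smaller lists, cholangiocyte markers had a higher share (66.7% of 12) and stellate cell markers had 46.7% of 15. Of 66 collagen and Adamts genes 37 (56.1%, 44.1 to 67.4%) had a narrow region, including Col26a1 (12.7), Col27a1 (11.8), Col14a1 (11.2) and Adamts14 (10.5), and 5 had only a wide one. Axon guidance genes had 37 of 74 (50%), including the semaphorins Sema7a (12.5), Sema6c (12.5) and Sema3f (12.0) and the ephrin Efna5 (9.15). Potassium channels had 45 of 92 (48.9%), including Kcnn1, Kcnk4 (14.9), Kcnd3 (9.29) and Kcnh4 (7.75). Calcium, sodium, HCN and TRP channels had 34 of 72 (47.2%), including the calcium channel subunits Cacna1b (11.2) and Cacng7 (10.5).

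Neurotransmitter receptors had 46 of 102 (45.1%), including the serotonin receptors Htr1d (11.5) and Htr6 (10.1) and the nicotinic subunits Chrna5 (10.2) and Chrnb4 (10.4), with a median -log10 p of 14.8 over 46 regions against 20.6 over all 2975. Cadherins and protocadherins had 27 of 98 (27.6%), including Celsr1 (12.5), Celsr3 (11.9), Cdh22 (9.03) and Dchs1 (6.5). Solute carriers had 67 of 321 (20.9%, 16.8 to 25.6%), including Slc10a4 (14.6), Slc24a3 (12.4), the glutamine transporter Slc38a1 (10.4) and Slc9a5 (7.31). The share of all genes was 13.3%.

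**Figure D5:**
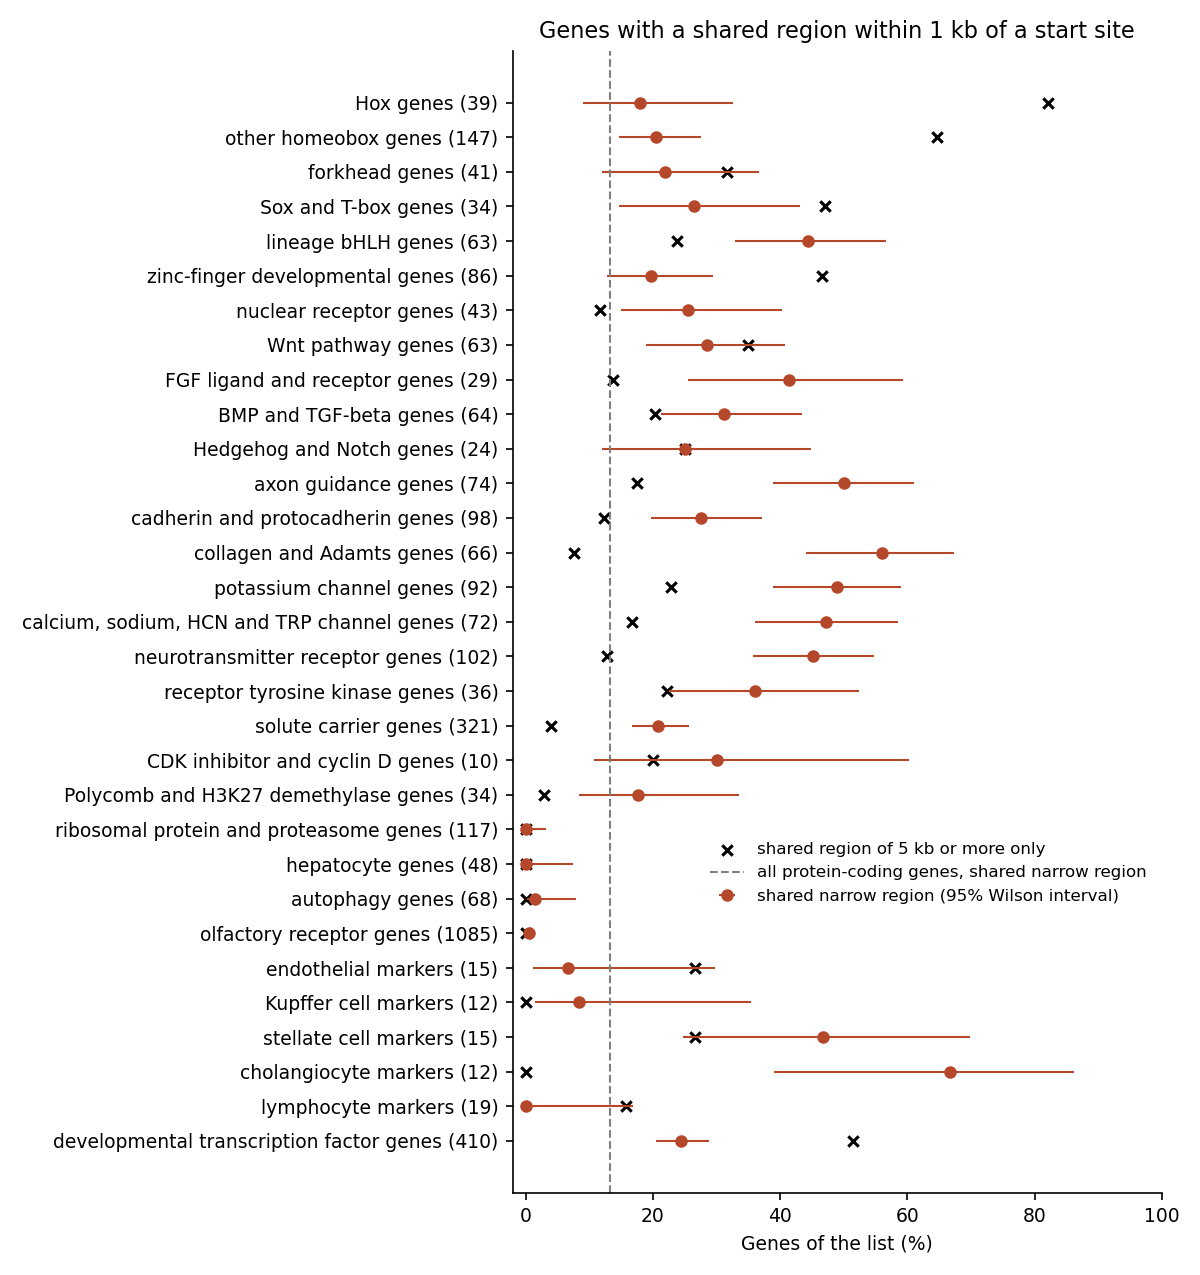
Percent of the genes of each list (number of genes in brackets) with a shared narrow region within 1 kb of a start site (red points, bars are 95% Wilson intervals) and with only a shared region of 5 kb or more (crosses), beside the 13.3% of all protein-coding genes (dashed line). Collagen and channel genes lie far to the right of the line, Hox and other homeobox genes more often have only a wide region than a narrow one, and hepatocyte and ribosomal genes are at 0.

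Genes that every cell or the hepatocyte uses had almost no region. None of 117 ribosomal protein and proteasome genes had one (upper limit 3.18%) and none of 48 hepatocyte genes (upper limit 7.41%). Of 68 autophagy genes 1 did, Calcoco2, with an AAV-Cre fold of 6.04 (q = 8.58e-17) and an AAV-GFP fold of 3.96 (q = 1.24e-05) over 56.6% of 1022 bp, and the other 67 had no peak of either list within 1 kb of a start site, against 75.1% of all genes without one. Of 1085 olfactory receptor genes 5 had a region (0.461%): Olfr95 (8.57), Olfr94 (7.37), Olfr1357 (4.95), Olfr222 (4.43) and Olfr224 (3.38). The strongest AAV-GFP peak had a q of 0.182 at Olfr1357 and Olfr224, and of 0.000895 or less at the others. Olfactory receptors act in the sensory neurons of the nose, and 1047 of them had no peak of either list within 1 kb.

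The 12 genes named for the study, among them Kdm6b, Tfeb, Ulk1, Atg3, Atg7 and Fgf21, had no peak of either list within 1 kb of a start site, as was the case for 75.1% of all genes, and the upper limit for 0 of 12 is 24.2%. The study counted peaks in a wider window around the start site and also measured H3K27-me3 at selected autophagy genes by ChIP assays. The absence given here holds for 1 kb only. The nearest region to any of the 12 genes was 6277 bp from Pnpla2, at the start of Cracr2b, followed by 19367 bp from Lipe, at Cnfn. For Fgf21 it was 68771 bp away, at Ntn5, and for Kdm6b 86161 bp away, at Kcnab3.

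Cell cycle and Polycomb genes were marked in part. Of 10 CDK inhibitor and cyclin D genes 3 (10.8 to 60.3%) had a region: Ccnd1 (fold 9.42), the imprinted inhibitor Cdkn1c (4.40) and Cdkn2b (4.46). This interval includes the 13.3% of all genes. Among the 34 genes of Polycomb complexes and H3K27 demethylases 6 had a region, namely Phf19, Cbx6, Cbx7, Cbx8, Bmi1 and Phc1. Their share was 17.6% (8.35 to 33.5%), an interval that includes the 13.3% of all genes. The AAV-Cre folds were 11.0 at Phf19, a PRC2 accessory subunit, 5.75 at Cbx6, 7.56 at Cbx7 and 5.70 at Bmi1, the last 3 being PRC1 subunits.

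The liver samples held all the cell types of the organ, and Cre was expressed in hepatocytes. A mark in few cells and a weak mark in many cells cannot be told apart in bulk tissue. Of 15 stellate cell markers 7 had a region, including Col1a1 (AAV-Cre fold 8.26), Des (8.09), Reln (5.39) and the retinol enzyme Lrat (4.51), and 4 had only a wide one. The strongest AAV-GFP peak had a q of 0.330 at Reln, and of 0.000308 or less at Col1a1, Des and Lrat. Of 12 cholangiocyte markers 8 had a region, including the junction protein Cldn7 (14.2), Muc1 (10.4), Epcam (7.71) and the secretin receptor Sctr (9.09). Endothelial markers had 1 of 15, Erg, with a fold of 11.7 (q = 3.81e-51) and an AAV-GFP fold of 4.69, and 4 had only a wide region. Kupffer cell markers had 1 of 12, C1qa, with a fold of 3.69 (q = 5.93e-06) and an AAV-GFP peak over 148 bp with a q of 0.0884. Lymphocyte markers had none of 19, and 3 had a wide region. Against the 13.3% of all genes, the intervals were 24.8 to 69.9% for stellate and 39.1 to 86.2% for cholangiocyte markers, and those of the endothelial (1.19 to 29.8%), Kupffer (1.49 to 35.4%) and lymphocyte lists (up to 16.8%) included it. How the cell types of the liver share in these peaks was not tested.

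By chromosome the share of genes with a region lay between 10.2% on chromosome 17 and 16.3% on chromosome 15, with 95% intervals of 8.51 to 12.2% and 13.8 to 19%.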

How the data were processed

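H3K27-me3 ChIP-seq and input libraries of mouse liver were used as 2 peak lists, 1 per group, each made from both replicates. Per the labels and the study's methods, the authors aligned reads to mm10 with BWA 0.7.13, filtered them with SAMtools 1.2 and Picard 1.126, called peaks with MACS within the AQUAS histone pipeline against pooled input, and kept peaks by naive overlap between replicates. The deposited columns are a fold enrichment ratio over input, −log10 p-values and −log10 q-values, a display score that was not used as a measurement, and the summit position. Read depth is unknown, since the lists hold no counts, and it limits how short or weak a peak could be called.

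Members were chosen by width (under 5000 bp), overlap (at least 1 bp) and distance (within 1 kb) to start sites of basic protein-coding transcripts (GENCODE vM21), and named after the genes within that distance. The members and gene lists were chosen with earlier results of these data known. Sequence was read from RefSeq GRCm38.p6 (mm10) with pysam. Named were the 10 strongest members, up to 4 per gene list by −log10 p (all where 5 or fewer), the extremes of CpG ratio, width and summit distance, those nearest each threshold, the 3 genes with most members and the study genes, passing over predicted genes and chromosome 18. Some genes that this rule names are not reported here. Cbx8 and Phc1, and the genes given as far from their next peak, were named after their values were seen. Shares have Wilson intervals and medians order-statistic intervals, both at 95%, from SciPy in Python. No test was possible, as each list has 1 value per region. The functions for overlap and distance were tested on simulated data. The authors' pooling left no per-replicate values.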

Additional observations from a re-analysis of the deposited data

How the results depend on the processing

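No paired analysis was possible because each list pools both replicates, and leaving out a replicate was not possible for the same reason. Of 72 recomputed values (9 results under 8 alternatives), 42 stayed within 1.5 times the count or inside the 95% interval of the share or median, and hepatocyte genes stayed at 0% under all 8. With the same number of strongest peaks from each list all 9 results did so.

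With AAV-GFP peaks over at least 0.5 of the AAV-Cre peak, 868 regions at 869 genes were left, 84.2% with a start site, a CpG ratio of 0.537, 62.1% covered, 73.8% with the summit downstream and 11.7% of developmental transcription factor genes. Below 3000 bp there were 1834 regions at 1695 genes, 72.2% with a start site, 33.6% covered and 12.9% of those factors, and below 10000 bp 82.8%, 40.2% and 44.6%. At a q of 0.01 in both lists, the start-site share was 85.5%, the ratio 0.469, coverage 36.0%, the downstream share 72.4% and the factor share 19.3%. Within 500 bp of a start site they were 87.1% with a start site, a ratio of 0.462 and 71.8% downstream, and within 2 kb 69.2%, 0.425 and 67.8%, with 36.0% covered. With every annotated transcript the ratio was 0.431, coverage 36.1% and the downstream share 66.3%. The number of all genes with a region changed with the setting as well, so the transcription factor shares cannot be set against 13.3%. Of 20720 genes, 869 had a region with 0.5 covered, 1695 below 3000 bp, 3422 below 10000 bp and 1980 at the stricter q. At the main setting 2751 did. Fewer or more regions enter by construction, and other causes were not tested. Depth is not known for either list.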
